A study of Mus musculus with 11 samples.

Results

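The mitochondrial respiratory chain and ATP synthase are built from nuclear-encoded and mitochondrially encoded subunits, and the genes described here are the nuclear-encoded ones carried by a mouse whole-genome Agilent array. Members were chosen by name alone: every gene whose name on the array starts with Ndufa, Ndufb, Ndufc, Ndufs, Ndufv, Uqcr, Sdha, Sdhb, Sdhc, Sdhd, Cox4, Cox5, Cox6, Cox7, Cox8 or Atp5. This gave 83 of 27714 genes and 116 of 41121 probes. By name, 36 members belong to complex I, 4 to complex II, 7 to complex III, 17 to complex IV and 15 to complex V, the ATP synthase. Ndufa4 is counted in complex I by this rule, although it is now regarded as a complex IV subunit. The prefixes also took 4 names that are not subunits, namely the assembly factors Ndufaf1 and Ndufa12l, the regulator Atp5s, and Cox4nb, a neighbour of Cox4i1 in the genome.

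Complex I takes electrons from NADH and complex II from succinate. Both pass them through ubiquinone to complex III, and cytochrome c carries them on to complex IV, where oxygen is reduced. Complexes I, III and IV move protons across the inner membrane, and complex V uses the gradient to make ATP. Subunits of 1 complex are assembled in fixed proportions, and most of their genes are active in every cell that respires. A few complex IV subunits have tissue isoforms. Cox6a2, Cox7a1 and Cox8b are known from heart and skeletal muscle, and the last pair also from brown fat, whereas Cox6a1, Cox7a2 and Cox8a are the common forms.

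RNA came from cardiac progenitor cells of the mouse heart and from C2C12. The latter are cultured mouse myoblasts, able to fuse into skeletal muscle fibres, and served as the control for muscle differentiation. The progenitors were labelled by region (atrium, ventricle, aorta) and by genotype, either wild type (WT) or null for beta-sarcoglycan, the product of Sgcb (KO). In the submitters' description, WT progenitors become beating heart muscle cells and the null ones become skeletal muscle fibres, so the comparisons ask how the 2 kinds of progenitor differ and how each stands to C2C12. Of 11 arrays, 5 were KO-labelled, 3 WT-labelled and 3 C2C12. The labels give no age, strain, passage or growth state, and do not tie arrays to separate animals or cultures. The p-values thus measure spread between samples. With arrays joined as described below, this is spread between heart regions within each genotype, any technical part included. Spread between animals or cultures within a region was not measured. Between the C2C12 samples the spread is possibly technical only.

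In 3 pairs of arrays (KO ventricle, KO aorta and C2C12, each on slides 1 and 3) the values differed by less than the noise between repeated spots, at 0.639 to 0.738 of it, against 2.58 or more for every other pair of a group. Each such pair was averaged and counted as 1 sample, which left 3 KO samples and 3 WT samples, 1 per region, and 2 C2C12 samples. All WT arrays lay on slide 2 and no KO array did, so slide and genotype are tied except through C2C12, which was on all 3 slides. A fit with slide as a block thus rests on 1 C2C12 sample from slides 1 and 3 against 1 from slide 2. Arrays of these 2 samples differed by 3.22 and 3.30 times the spot noise. A slide effect and a difference between the C2C12 samples cannot be told apart in the slide-block values below. The WT atrium sample stood apart from the other WT samples, with an SD of log2 differences of 0.642 and 0.662 to them, against 0.233 between WT ventricle and WT aorta. Counts of calls, regional ranges and the values of Cox7a1, Ndufa1 and Atp5d are also given without it. On each array 49.0 to 62.0% of probes cleared the background by the scanner's own flag. Precision is limited by how few arrays there are. Values below are log2 of the signal over the 75th percentile of each array, so that 0 marks a probe as bright as that percentile. They are relative levels, in which fewer cells of a type and less RNA per cell cannot be told apart.

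The gene deleted in the KO mice, Sgcb, was not lower in the KO-labelled samples. Its brightest probe read 2.57, 2.91 and 2.28 in KO atrium, ventricle and aorta, and 2.01, 2.13 and 1.75 in the WT samples (KO minus WT 0.62 ± 0.21 SE, limma adjusted p = 0.072). Whether the probe lies outside the deleted part is not given in the sources used here, so both genotypes are named here by their labels only. The cell type markers differed too. Of 9 skeletal muscle genes, 8 were above background on every KO array and all 9 on every C2C12 array, but 1 on every WT array, and Myog, Myf5, Cdh15, Myh3 and Ckm were above background on no WT array. The summed signal of the 9, on the same log2 scale, ran from 5.58 to 7.46 in KO-labelled, from -0.92 to 1.35 in WT-labelled and from 6.66 to 7.95 in C2C12 samples. Of 7 heart muscle genes, 4 were above background on every KO array, 3 on every WT array and 5 on every C2C12 array. Their summed signal was 4.69, 5.30 and 4.23 in KO atrium, ventricle and aorta. It was 2.72, 1.35 and 1.45 in WT, and 5.55 and 4.46 in C2C12. Single genes went both ways. Tnnt2, Tnni3 and Nkx2-5 were higher in every KO than in every WT sample, Nppa and Nppb lower, and Myh6 and Myl7 overlapped. Of 5 fibroblast genes, 4 were above background on every KO and C2C12 array and 5 on every WT array. Thy1 was above it on WT arrays only. Thy1, Pdgfra and Dcn were higher in every WT than in every KO sample, and Col1a1 and Col1a2 lower. All 3 pericyte and mesoangioblast genes were above background on every KO and C2C12 array, and 2 on every WT array. Of 3 epicardial genes, Msln alone was above background on every array, and it was higher in WT than in KO. The endothelial genes Pecam1, Cdh5 and Kdr, the blood cell gene Ptprc and the brown fat genes Ucp1 and Cidea were above background on no array.

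As a group, the respiratory chain genes stayed at nearly the same relative level in all 8 samples. The median over the 77 subunits that passed the filter over all 11 arrays (above background on 3 or more of them) was 4.65, 4.66 and 4.64 in KO atrium, ventricle and aorta. It was 4.63, 4.73 and 4.69 in the WT samples in the same order, and 4.66 in each C2C12 sample. The KO and WT values overlapped, and the means (4.65 ± 0.01 and 4.68 ± 0.05, SD, n = 3 each) differed by less than the spread of the WT samples. Median levels of single complexes differed more, with KO minus WT at -0.16, 0.38, -0.14, 0.32 and 0.20 for complexes I to V. KO and WT did not overlap in complexes II, IV and V. A median level can rest on 1 gene: the median of the complex IV differences was -0.15.

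In KO minus WT, 80 of the 83 members passed the filter on dim probes (above background on 3 or more of the 8 heart arrays). Cox4i2, Cox8b and Cox8c did not. At an adjusted p under 0.05, 5 were higher and 4 lower in KO, together 11.25% of those tested, where 29.6% of all 15049 genes tested were called (13.4% higher and 16.2% lower). The median difference was -0.021 for members and -0.064 for all genes, and the median size of a difference, sign aside, was 0.15 and 0.44. The members were bright, and 76 of them lay above the 75th percentile. Of these 76, 7 were called (9.21%), against 22.3% of all 7715 genes as bright. Only Cox7a1 differed by 2-fold or more, where 23.2% of all genes did. In 28 members (35%) the 3 KO values lay wholly above or wholly below the 3 WT values, against 49.3% of all genes. The median SE of a member's difference was 0.15, against 0.21 for all genes. A missing call does not show that a member was equal in both groups.

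**Figure D1:**
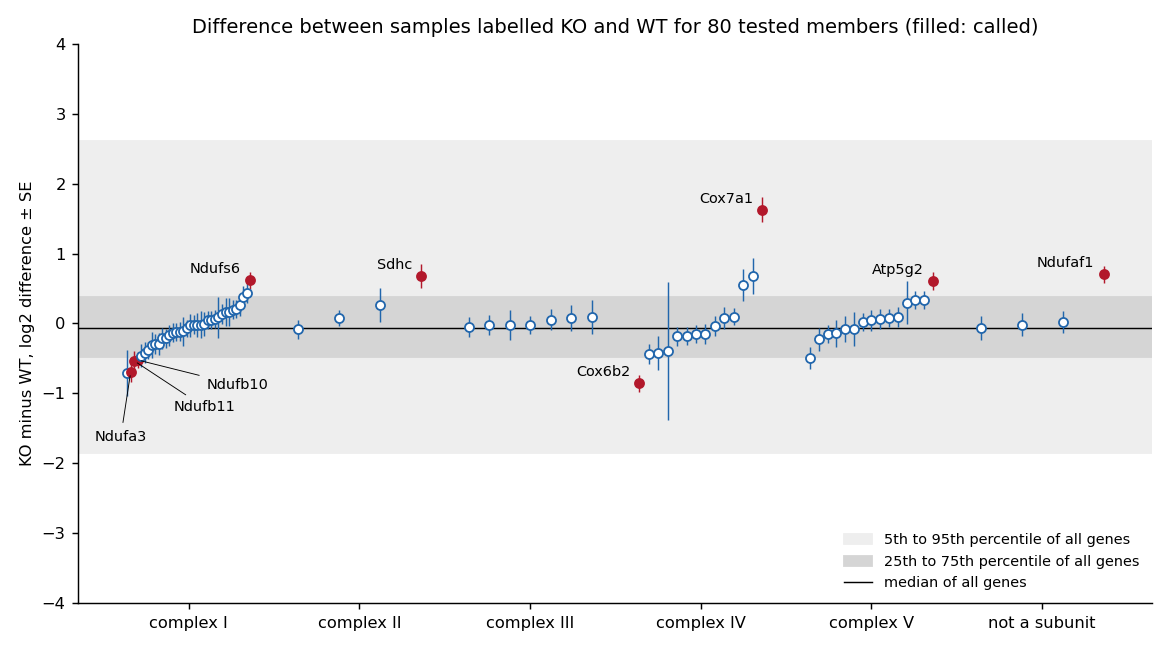
KO minus WT difference (log2, point ± SE) of the 80 tested members, ordered within each complex, with filled points for those called at adjusted p under 0.05. Bands show the spread of all 15049 genes tested. Most members lie in the inner band, and Cox7a1 stands highest at 1.63.

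Complex IV held both the highest and the lowest difference. Cox7a1 is the muscle isoform of a small subunit of cytochrome c oxidase. Its probe (mm8 chr7:29894078-29894689, plus strand) read -1.63, -1.61 and -1.64 in KO atrium, ventricle and aorta. It read -3.59, -3.07 and -3.10 in the WT samples and -1.35 and -1.31 in C2C12. The KO samples lay within 0.03 of each other, all above every WT sample and below both C2C12 samples. The KO level was 3.08-fold that of WT (log2 difference 1.63 ± 0.18 SE, limma adjusted p = 0.0015, higher in 3 of 3 regions). With slide as a block, tied through C2C12, the difference was 1.66 but the call was lost (adjusted p = 0.058). Without WT atrium it was 1.46 (adjusted p = 0.00078), and with normexp background correction and quantile normalization 0.95. The summed skeletal muscle markers given above were also higher in every KO than in every WT sample. Over the KO regions their sum ran from 5.58 to 7.46, where Cox7a1 stayed within 0.03. Their part in the difference was not tested. The brown fat markers were above background nowhere.

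The common counterpart Cox7a2 (mm8 chr9:79541104-79541163, minus strand) read 4.82, 4.66 and 4.64 in KO and 4.59, 4.09 and 3.80 in WT, with 4.58 and 4.68 in C2C12. WT ventricle and WT aorta were its 2 lowest samples, and WT atrium lay just below the lowest KO sample. The difference of 0.55 ± 0.22 did not pass the test (adjusted p = 0.12), and the second Cox7a2 probe gave 0.54. Measured within each sample as Cox7a1 minus Cox7a2, the pair was 1.08 higher in KO than in WT (exact permutation p = 0.1, two-sided, the smallest that 3 against 3 samples allow, and 0.4 adjusted over 4 isoform pairs).

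Cox8b, the muscle form of a small subunit of cytochrome c oxidase, was above background in 1 of 6 heart samples. Its probe (mm8 chr7:140750273-140750332, minus strand) read -2.76 and -2.54 on the 2 KO ventricle arrays, both well above background. On the other 3 KO arrays it read -7.14, -6.65 and -7.11, and on the 3 WT arrays -6.70, -7.74 and -6.57, none of them above background. In C2C12 it read -0.49 on slide 1, -1.49 on slide 2 and -0.48 on slide 3, above background on all 3. For a probe below background only a bound can be given, from the lowest signal above background on each dim array. KO ventricle was at least 4.79-fold above the log2 mean of the 5 other heart samples, and the C2C12 samples at least 21.5-fold and 10.7-fold. These bounds hold for that mean and not for each sample. The highest single limit was that of WT aorta, at -4.51. All 9 skeletal muscle genes were also highest in KO ventricle among the heart samples. They include Myog, Myh3 and Ckm, genes that myoblasts switch on as they form fibres, but also Myod1 (2.97) and Cdh15 (5.47). Myh6, of the heart muscle list, was highest in KO ventricle too (-3.54). It was above background on 2 of 5 KO arrays, no WT array and all 3 C2C12 arrays. Myog read 4.54 there, 1.29 in KO atrium and -0.50 in KO aorta, with 5.74 and 3.87 in C2C12. The part of differentiating muscle cells in the Cox8b signal was not tested. Cox8a, the common form, stayed between 6.02 and 6.32 in all 8 samples (KO minus WT -0.04, adjusted p = 0.87).

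Cox6a2, the muscle form of another subunit, varied more within each genotype than between them. It read -2.46, 1.18 and -0.58 in KO atrium, ventricle and aorta, -1.35, -0.05 and 0.71 in the WT samples, and 2.02 and 0.64 in C2C12. Atrium was lowest in both genotypes, the highest region was ventricle in KO and aorta in WT, and the groups overlapped. The difference was -0.39 ± 0.99 SE (adjusted p = 0.80). The common Cox6a1 lay between 7.09 and 7.35 throughout, with KO minus WT -0.15 (adjusted p = 0.41). Within samples, the Cox6a2 and Cox6a1 pair differed by -0.24 (exact permutation p = 0.9, adjusted 0.9), and the Cox8b and Cox8a pair by 1.56 (exact permutation p = 0.6, adjusted 0.8), with Cox8b below background in 5 of the 6 samples. The 3 muscle isoforms therefore had 3 patterns over the same samples.

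**Figure D2:**
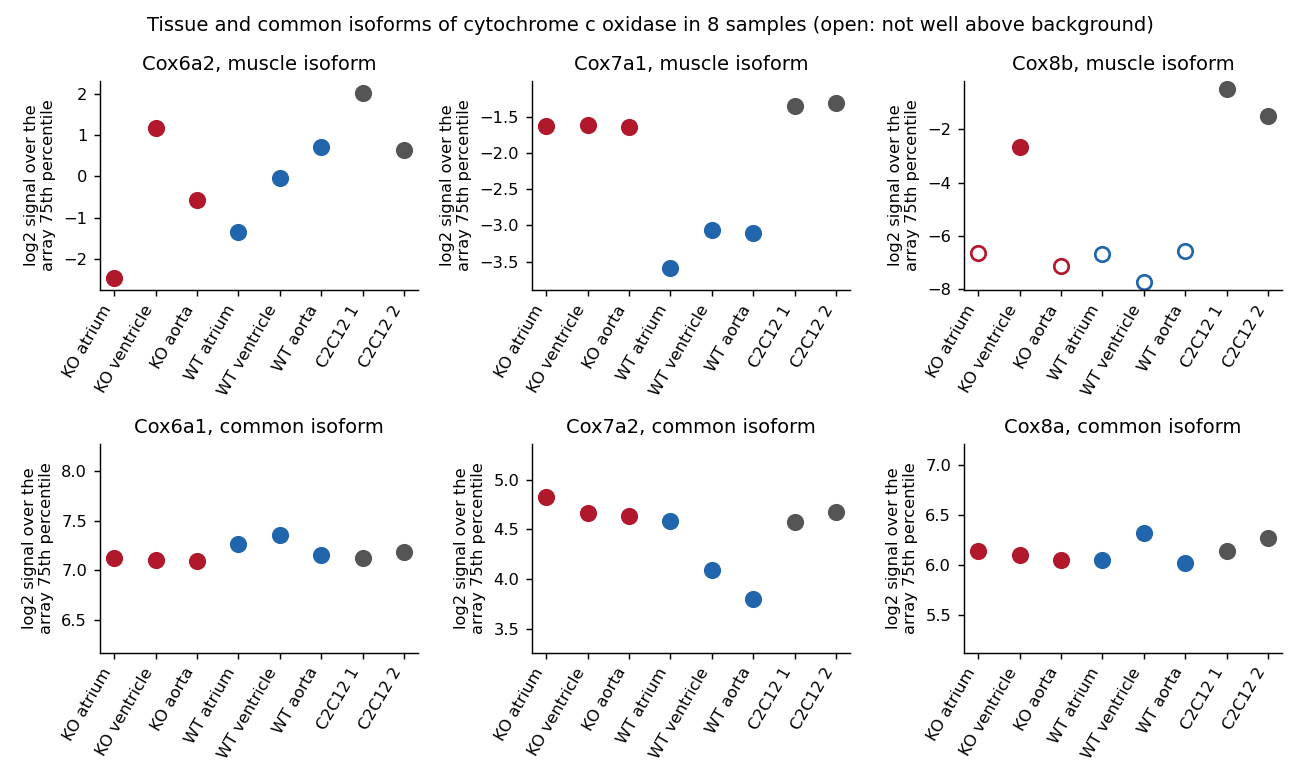
Level of 3 muscle isoforms (upper panels) and their common counterparts (lower panels) in each sample, as log2 signal over the array's 75th percentile, with open points for samples not well above background. Cox7a1 separates KO-labelled from WT-labelled samples, Cox8b is above background in KO ventricle and C2C12, and Cox6a1 and Cox8a are nearly level. Vertical scales differ between panels and heights cannot be set against each other between probes.

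The upstream stretches of the 2 muscle isoforms in the promoter table are shown with those of their common counterparts, because Cox7a1 and Cox8b did not move together in these samples. They are the 250 bases before the gene start in RefSeq on GRCm38.p6, read along the gene, for Cox7a1 (chr7:30183921-30184170, plus strand), Cox8b (chr7:140900447-140900696, minus strand), Cox7a2 (chr9:79759854-79760103, minus strand) and Cox8a (chr19:7217617-7217866, minus strand). Capitals mark each match to the E-box CANNTG, the core read by myogenic and many other helix-loop-helix factors.
Cox7a1: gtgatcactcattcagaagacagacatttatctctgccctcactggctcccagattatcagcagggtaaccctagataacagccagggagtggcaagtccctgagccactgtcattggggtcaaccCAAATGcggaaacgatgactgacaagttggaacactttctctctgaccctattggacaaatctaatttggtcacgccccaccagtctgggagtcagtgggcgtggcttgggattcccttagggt
Cox8b: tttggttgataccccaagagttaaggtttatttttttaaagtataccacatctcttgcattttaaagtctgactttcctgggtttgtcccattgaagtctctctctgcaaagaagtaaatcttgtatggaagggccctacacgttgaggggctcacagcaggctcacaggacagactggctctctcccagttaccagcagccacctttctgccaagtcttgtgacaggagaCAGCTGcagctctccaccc
Cox7a2: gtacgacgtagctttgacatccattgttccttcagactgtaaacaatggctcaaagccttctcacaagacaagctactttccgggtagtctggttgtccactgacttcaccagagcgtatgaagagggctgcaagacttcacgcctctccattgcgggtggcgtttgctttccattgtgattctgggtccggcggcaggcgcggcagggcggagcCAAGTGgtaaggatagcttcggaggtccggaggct
Cox8a: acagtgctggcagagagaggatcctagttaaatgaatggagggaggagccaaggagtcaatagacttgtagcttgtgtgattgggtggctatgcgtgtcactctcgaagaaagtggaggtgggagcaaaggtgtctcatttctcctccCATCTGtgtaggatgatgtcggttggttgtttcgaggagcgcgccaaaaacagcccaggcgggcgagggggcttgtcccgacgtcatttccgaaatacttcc
Each stretch holds 1 E-box: CAGCTG at -19 in Cox8b, CAAATG at -124 in Cox7a1, CAAGTG at -35 in Cox7a2 and CATCTG at -102 in Cox8a, counted from the gene start. E-boxes are common, and 72.3% of all 32851 promoters in the table hold one within the 300 bases from 250 before to 50 after the start.

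The promoters were also searched on both strands for 4 other motifs: NRF1 (GCGCATGC or a longer form, which can overlap it), ETS (CCGGAAG), MEF2 and YY1. Of the 79 subunit genes, 65 matched the table, with 70 promoters. NRF1 letters were in 22.9% of these and in 4.41% of all promoters, ETS letters in 22.9% and 8.86%, and YY1 letters in 7.14% and 0.852%. E-boxes were in 70% and MEF2 letters in 1.43%, against 72.3% and 3.69% of all. Cox7a1 and Cox8b held none of these 4 motifs in the window. A match describes letters and does not show a site in use.

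Cox6b2, the testis isoform of a complex IV subunit, was the member most clearly lower in KO. It was dim but above background on all 11 arrays, at -3.31, -3.18 and -3.26 in KO atrium, ventricle and aorta and at -2.42, -2.39 and -2.37 in WT. Each group was tight and the groups did not overlap (-0.86 ± 0.12 SE, limma adjusted p = 0.0037). C2C12 read -3.08 on slides 1 and 3 and -2.48 on slide 2, the slide that held the WT arrays. With slide as a block the difference shrank to -0.25 (adjusted p = 0.66). Cox6b1, the common form, was at -0.18 (adjusted p = 0.36). Of the other complex IV members, Cox7b (0.68, adjusted p = 0.098), Cox7a2l (-0.43, 0.23) and Cox4i1 (-0.18, 0.35) were not called. Cox4i2, an isoform known from lung, was above background on 1 of 11 arrays, in C2C12, and the testis isoform Cox8c on none.

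Complex I, the largest, had 36 members, all tested, of which 1 was higher and 3 lower. Ndufs6, a zinc-binding accessory subunit of the matrix arm, was higher. It read 4.43, 4.47 and 4.40 in KO atrium, ventricle and aorta, 3.80, 3.88 and 3.77 in WT, and 4.47 and 4.50 in C2C12. Every KO sample was thus above every WT sample and near C2C12 (0.62 ± 0.12 SE, limma adjusted p = 0.012), and its 3 probes gave 0.62, 0.58 and 0.63. Ndufa3, an accessory subunit of the membrane arm, read 2.74, 2.73 and 2.67 in KO and 3.48, 3.51 and 3.24 in WT (-0.70 ± 0.14, adjusted p = 0.013). Ndufb10 and Ndufb11, also of the membrane arm, were lower, at -0.52 ± 0.12 (adjusted p = 0.023) and -0.54 ± 0.14 (adjusted p = 0.033), with no overlap of the groups. The other 32 lay between -0.71 and 0.43. Ndufa1, at -0.71, was the largest of these in size and was not called (adjusted p = 0.16), since WT atrium (4.24) lay among the KO samples (4.18 to 4.37) while WT ventricle and aorta read 5.48 and 5.24. Without WT atrium it was called, at -1.09 ± 0.13 (adjusted p = 0.0037).

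Complex II had 4 members, of which Sdhc was called. Sdhc, 1 of the 2 membrane anchors that hold the enzyme's haem, read 3.33, 3.49 and 3.46 in KO atrium, ventricle and aorta and 2.96, 2.82 and 2.46 in WT (0.68 ± 0.17 SE, limma adjusted p = 0.030). The other anchor, Sdhd, differed by 0.27 (adjusted p = 0.45), and the catalytic subunits Sdha and Sdhb by -0.08 and 0.08 (adjusted p = 0.67 and 0.66). None of the 7 complex III members was called, and their differences ran from -0.05 to 0.09, the narrowest range of the 5 complexes. It included the Rieske iron-sulphur protein Uqcrfs1 (0.09) and the hinge protein Uqcrh (0.08).

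Complex V had 15 members, of which 1 was called. Atp5g2 is 1 of 3 genes that encode the same mature ring subunit with different import sequences. It read 6.02, 5.90 and 6.14 in KO atrium, ventricle and aorta, 5.37, 5.47 and 5.39 in WT, and 6.20 and 6.14 in C2C12 (0.61 ± 0.13 SE, limma adjusted p = 0.017). Its second probe gave 0.85. The other ring genes were not called: Atp5g1 was at -0.49 (adjusted p = 0.061) with no overlap of the groups, and Atp5g3 at 0.02 (adjusted p = 0.93). The catalytic subunit Atp5b differed by 0.08 (adjusted p = 0.68). Among the 4 names that are not subunits, Ndufaf1, an assembly factor of complex I, was higher, at 1.72, 1.64 and 1.69 in KO and 0.96, 1.06 and 0.91 in WT (0.70 ± 0.12 SE, limma adjusted p = 0.0082). The other 3 lay between -0.07 and 0.02.

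With slide as a block none of the 81 members then tested was called, where 5.65% of all genes were. All 9 differences kept their sign there, Cox6b2 at -0.25 and the others with sizes from 0.40 to 1.66. Cox7a1, Cox6b2 and Ndufaf1 kept their calls whichever single sample was left out. Sdhc and Ndufb10 lost theirs without any 1 of KO ventricle, KO aorta, KO atrium, WT ventricle or WT aorta (Sdhc 0.53 to 0.72, adjusted p 0.071 to 0.099, and Ndufb10 -0.56 to -0.48, 0.067 to 0.081). Ndufb11 did so without KO ventricle, KO aorta, KO atrium or WT ventricle (-0.55 to -0.46, 0.075 to 0.11). Atp5g2 and Ndufs6 did so without KO aorta, WT aorta or KO atrium (0.55 to 0.61, 0.062 to 0.078, and 0.59 to 0.63, 0.050 to 0.055), and Ndufa3 without KO aorta or KO atrium (-0.71 to -0.68, 0.052 to 0.056). With region as a block Sdhc, Ndufb10, Ndufb11 and Atp5g2 were not called. Scaling to the array median ended the calls of Ndufb10 and Ndufb11, and testing every dim gene as well ended all but those of Cox7a1, Cox6b2 and Ndufaf1. Without WT atrium 9 members were higher and 10 lower, and 40.0% of all genes were called.

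Set against C2C12, the KO-labelled samples gave no called member. In KO minus C2C12, 0 of 81 members were called, 5 had an unadjusted p under 0.05, and 1.22% of all 15864 genes tested were called. The median member difference was -0.088, against -0.030 for all genes. In 56.8% of members (11 higher, 35 lower) the KO and C2C12 values did not overlap, against 37.9% of all genes. Among the 5 with an unadjusted p under 0.05 was Cox8b (limma adjusted p = 0.20). It was above background on 2 of 5 KO arrays, so no size is given. The others were Ndufs5 at 0.44, Uqcrc2 at 0.36, Ndufa3 at -0.45 and Cox6b2 at -0.47. Cox7a1 was at -0.30 ± 0.18 (adjusted p = 0.59), and on slides 1 and 3 alone, which hold KO and C2C12 together, at -0.25 and -0.30.

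In WT minus C2C12, 1 member was higher and 7 were lower of 81 tested (9.88%), against 27% of all genes (13.8% higher and 13.1% lower). The median member difference was -0.072, against 0.035 for all genes. In 44.4% of members the WT and C2C12 values did not overlap, against 54.2% of all genes. Cox8b was above background on no WT array and was lower by at least 15.8-fold (limma adjusted p = 0.013, measured means -7.00 in WT and -0.99 in C2C12). Cox7a1 was lower, at -1.93 ± 0.18 SE (adjusted p = 0.00041), and at -1.94 on slide 2 alone. Sdhc (-0.79), Ndufaf1 (-0.78), Atp5g2 (-0.76) and Ndufs6 (-0.67) were lower with adjusted p of 0.016, 0.0043, 0.0063 and 0.0075. Ndufb4, an accessory subunit of complex I named here after its value was seen, was lower, at -0.64 (adjusted p = 0.018). Ndufs5, another accessory subunit of complex I, was higher, at 6.38, 6.43 and 6.31 in WT atrium, ventricle and aorta against 5.92 and 5.82 in C2C12 (0.50 ± 0.13, adjusted p = 0.026). This comparison shares the WT samples with KO minus WT, so the 2 sets of values are not independent.

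With slide as a block, Cox7a1 (-1.94, adjusted p = 0.0059) and Ndufaf1 (-0.79, 0.034) kept their calls against C2C12. Atp5g2 (-0.73, 0.052), Ndufs6 (-0.68, 0.0501), Cox8b (0.088), Sdhc (0.097) and Ndufs5 (0.56, 0.095) did not. Leaving out either C2C12 sample also ended the calls of Cox8b (adjusted p 0.054 and 0.086), Sdhc (0.079 and 0.094) and Ndufs5 (0.053 to 0.15, which was also lost without WT ventricle or WT aorta), and leaving out C2C12 2 that of Ndufs6 (0.056). Without WT atrium 5 members were higher and 14 lower. Without C2C12 1 the counts were 0 and 4, and without C2C12 2 they were 1 and 3.

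**Figure D3:**
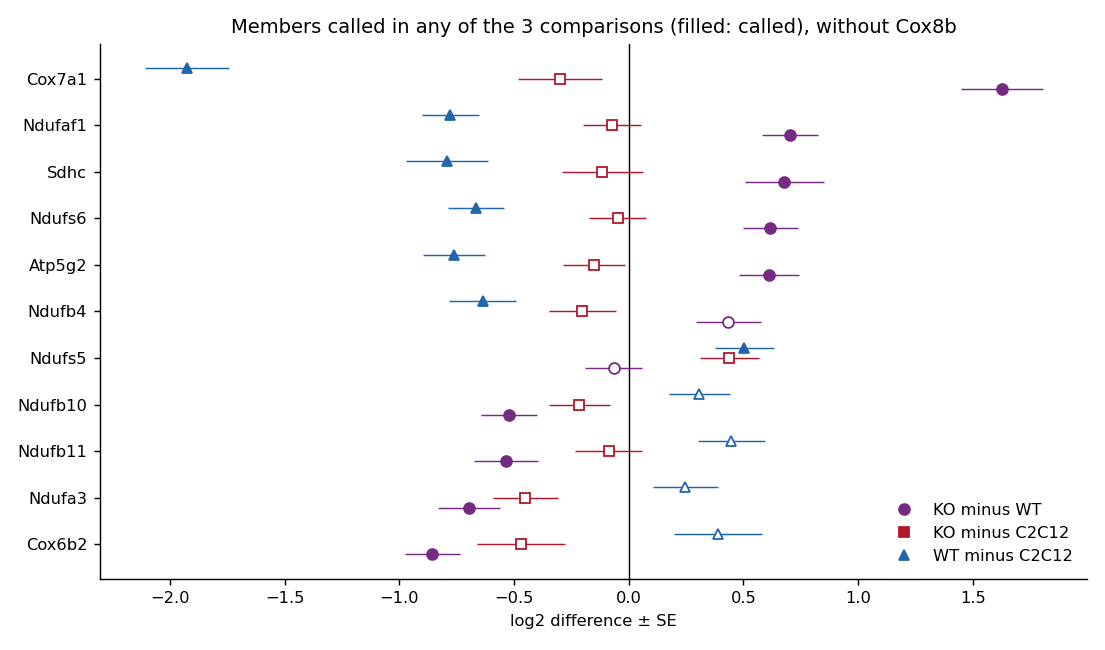
Log2 difference (± SE) in the 3 comparisons for each member called in any of them, with filled marks for calls and Cox8b left out because it has only a bound. Cox7a1, Ndufaf1, Sdhc, Ndufs6 and Atp5g2 lie right of 0 in KO minus WT and left of 0 in WT minus C2C12, which share the WT samples, and no KO minus C2C12 mark is filled.

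Across regions of the heart, with genotype in the fit, no member was called, and neither was any of all 15049 genes (0% called). At an unadjusted p under 0.05 there was 1 member, Cox6a2 (limma adjusted p = 0.81), and 723 of all genes (4.8%). With 1 sample per genotype and region, this test rests on the 2 genotypes as replicates. Most members varied more among the WT-labelled regions than among the KO-labelled ones. The range from lowest to highest region was larger in WT for 66 of 80 members, with a median range of 0.31 in WT and 0.13 in KO, against 0.54 and 0.34 over all genes, of which 67.5% ranged wider in WT. Without atrium, the gap between ventricle and aorta was wider in WT for 56 of 80 members (median 0.13 in WT and 0.085 in KO), but for 41.9% of all genes (median 0.17 and 0.22). KO ventricle and KO aorta are each means of 2 arrays. The WT atrium sample lay at an end of the WT range in 61 members (76.25%), lowest in 32 and highest in 29, and in 84.3% of all genes. It differed by 0.5 or more from the mean of the other WT regions in 18 members (22.5%), against 41.1% of all genes, where KO atrium did so in 1 (1.25%) and 13.0%. Only Cox6a2 ranged over more than 2-fold in KO, and 4 members did in WT. Atp5d, a subunit of the central stalk of ATP synthase, read 3.27 in WT atrium and 4.47 and 4.06 in WT ventricle and aorta, against 4.21 to 4.25 in KO. Its KO minus WT difference was 0.30 (limma adjusted p = 0.51), and -0.03 without WT atrium. The plot of ranges shows most members above the line of equal spread.

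**Figure D4:**
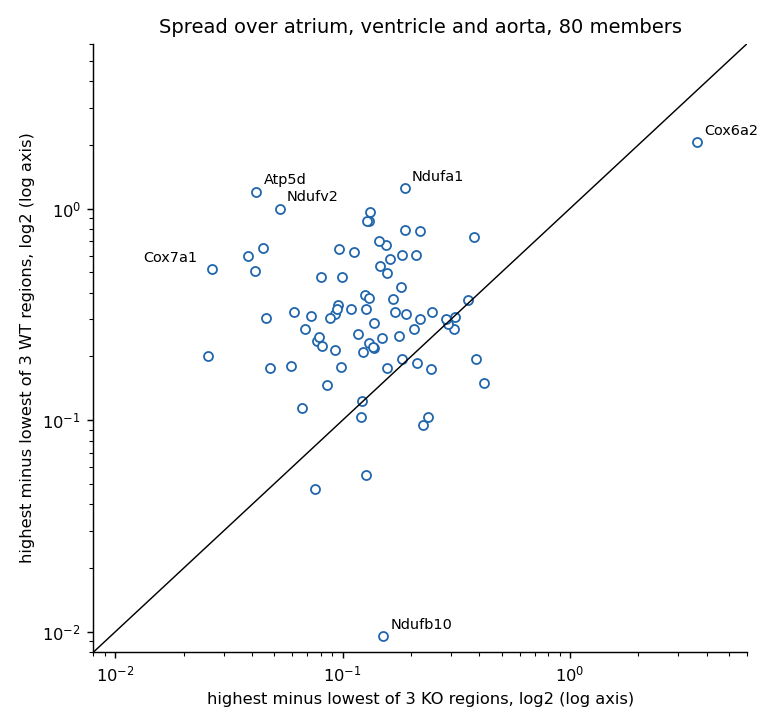
Highest minus lowest of the 3 regions (log2, both axes logarithmic) for each of the 80 tested members, KO-labelled samples across and WT-labelled samples up, with the line of equal range. Points above the line, 66 of 80, varied more among WT regions, and Cox6a2 lies far from the rest in both genotypes.

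Of the 83 members, 26 had more than 1 probe and 24 more than 1 tested probe. In 16 cases a second probe less than 2 log2 units dimmer than the gene's brightest gave nearly the same KO minus WT difference, with a median gap of 0.03 and a largest gap of 0.26. There were 9 probes more than 4 log2 units dimmer than the brightest, most of them listed under accessions of single cDNA clones. Of the 9, 8 had lower values in KO and 4 were called lower, where 29.1% of all 22672 probes tested were called and 16% were called lower. The 4 were those for Atp5f1 (-2.38 ± 0.50 SE), Ndufa3 (-1.18 ± 0.29), Ndufb2 (-0.96 ± 0.27) and Ndufb8 (-0.87 ± 0.25), with limma adjusted p of 0.016, 0.028, 0.039 and 0.043. The brightest probes of Atp5f1, Ndufb2 and Ndufb8 were at -0.08, 0.05 and -0.38 and were not called. The acyl carrier Ndufab1 was the other gene whose probes disagreed: a probe 2.82 log2 units below the brightest gave 0.87 (adjusted p = 0.011) and the brightest -0.03. Adjusted p-values in this paragraph are over all probes tested.

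**Figure D5:**
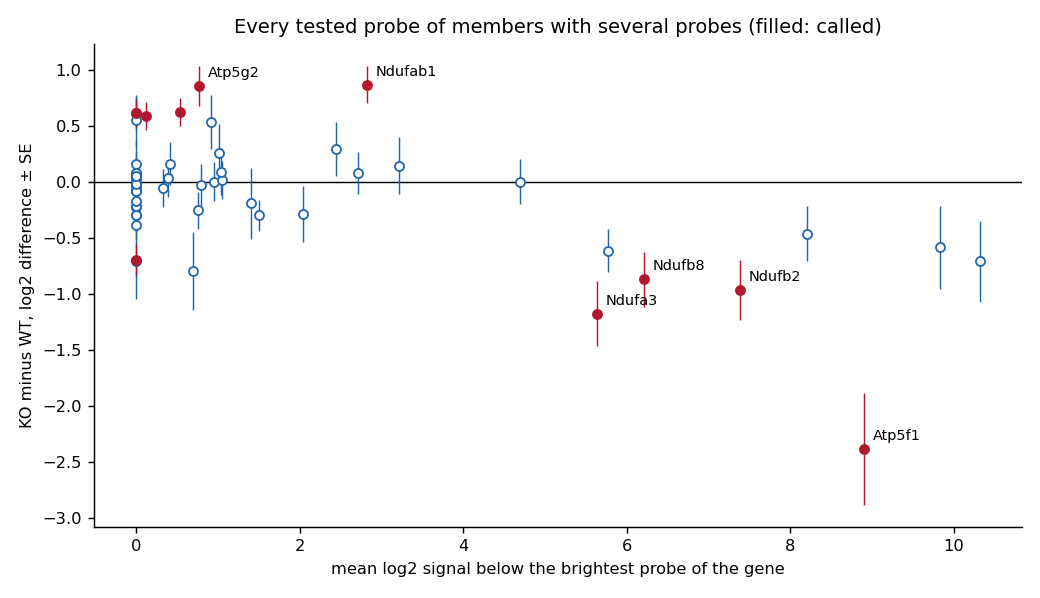
KO minus WT difference (log2 ± SE) of every tested probe of the members with several probes, against how far the probe's mean lies below that of the gene's brightest probe, with filled points for called probes. Probes within 2 log2 units follow the brightest, and 8 of the 9 probes beyond 4 units lie below 0.

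Genes that build or control the chain were read from lists of the same pathway. For all genes in KO minus WT, 29.6% were called, 13.4% higher and 16.2% lower, and no list counted here exceeded that total share. Of 19 assembly factors tested, 2 were higher and 1 lower in KO (15.8% called, median 0.07). Nubpl, which inserts iron-sulphur clusters into complex I, was at 1.01 ± 0.24 SE (limma adjusted p = 0.023), Acad9, of the complex I assembly machinery, at 0.66 (0.016), and the complex III factor Ttc19 at -0.61 (0.015). Of 16 regulators of mitochondrial biogenesis, 2 were higher and 2 lower (25% called, median 0.04). Ppargc1a, a coactivator of mitochondrial genes, was lower (adjusted p = 7.8e-05), with no size given since most KO arrays were below background. It read -5.47, -5.45 and -5.77 in KO atrium, ventricle and aorta, where 1 of 5 arrays was above background, and -2.21, -1.88 and -2.29 in WT, where all 3 were. In C2C12 it read -6.22 and -5.20, with 1 of 3 arrays above background. Its relative Ppargc1b (0.20), the nuclear receptor Esrra (0.22), the factor Nrf1 (0.04) and the mitochondrial DNA factor Tfam (0.01) were not called, and Gabpa, a subunit of an ETS-family factor, was at 0.45 (adjusted p = 0.042). Polg, the mitochondrial DNA polymerase, was at 0.56 (0.048) and Peo1, the helicase, at -0.46 (0.044).

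Beside the chain, the citrate cycle gene Suclg2, of succinyl-CoA ligase, was lower in KO (-0.80, limma adjusted p = 0.0094). Of 13 genes for electron carriers and entry, 1 was lower (Dhodh, which feeds electrons from pyrimidine synthesis, -0.64, 0.036), and cytochrome c itself, Cycs, was at -0.04 (0.88). Of 75 genes of the mitochondrial ribosome, 2 were higher, Mrpl40 (0.60, adjusted p = 0.044) and Mrpl13 (0.59, 0.020), and 7 lower, among them Mrpl28 (-0.71, 0.011) and Mrps2 (-0.68, 0.028). Of 18 glycolytic genes, 4 were higher and 1 lower, with Pfkp, a phosphofructokinase, at 1.16 (0.0036), Aldoc at 0.99 (0.021) and Ldhb, the lactate dehydrogenase subunit of heart, at -2.04 ± 0.36 (0.0084). Of 7 carriers and channels, Ucp2, an uncoupling protein, was higher. It was above background on all 5 KO arrays and on no WT array, which puts KO at least 14.3-fold above WT (adjusted p = 0.00011, measured means -1.14 in KO and -6.92 in WT). The shares called were 7.69% for electron carriers and entry, 12% for the ribosome, 27.8% for glycolysis and 14.3% for carriers and channels. Over all genes the share was 29.6%.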

How the data were processed

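Total RNA was labelled with Cy3 and hybridised to 1-colour arrays. Per the submitters' processing notes, the deposited intensity values were produced by Agilent Feature Extraction 9.5.3.1, with the background subtracted and no scaling between arrays, per the file headers. A table of log2 values for all arrays was also deposited, and its columns equalled log2 of the probe means within 0.01 for 99.9% of probes on every array, so the authors' columns carried no further scaling or centring. Control spots and outlier spots were left out, repeated spots were averaged, and log2 signals were set relative to the 75th percentile of each array. Probes of 1 gene were reduced to the brightest that was well above background on at least 3 fitted arrays. Differences were tested with limma 3.58.1 in R 4.3.3 over all genes, with Benjamini-Hochberg adjustment and calls at 0.05, with only the heart samples for KO against WT and all samples for the comparisons with C2C12. The fit was tested on simulated data in which 200 genes were changed. Of changes of 1 log2 unit it called 33% in KO minus WT and 17% in each comparison with C2C12. Of changes of 2 log2 units it called 70% in KO minus WT, 72% in KO minus C2C12 and 66% in WT minus C2C12. The data themselves called 29.6% of all genes in KO minus WT and 27% in WT minus C2C12, far more than 200. With more calls the adjustment is less strict, so the simulated shares do not give the power of those 2 comparisons. The changed genes were drawn from all genes tested and not from the members. The members and lists were chosen with earlier results of these data known. Genes were named if they were isoform genes, the brightest or among the 4 largest calls of a complex, the 3 largest calls against C2C12, those of the smallest regional p, or the largest calls and main regulators of the other lists. Promoter sequences are from RefSeq on GRCm38.p6, in which 68 of 83 members matched, and probe positions are on mm8 per the file headers. The alternatives covered scaling, background, filter, probe choice, naming, joining of arrays, slide, region and left-out samples. The count of called citrate cycle genes is not reported here.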

Additional observations from a re-analysis of the deposited data

Results flagged for a closer look

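Atp5d was marked because atrium minus the mean of the other regions had opposite signs in the genotypes, at -0.99 in WT and 0.018 in KO, where the KO atrium value lay between those of KO ventricle and KO aorta. Atrium minus the mean of the other regions, taken as WT minus KO, was -1.01 on the log2 scale. The difference was not tested, with 1 atrium sample per genotype. The groups hold 3 samples or fewer, so no search for outlying samples within a group was made.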

How the results depend on the processing

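No called named gene changed sign under any alternative run. For KO minus WT (5 members higher, 4 lower, median -0.021), treating every array as its own sample gave 11 and 10, median scaling left 2 lower with a median of 0.080, normexp with quantile normalization gave 7 lower, no filter on dim probes 2 and 1, every probe 9 and 8, the dimmest probe of a gene 7 lower, the region block 3 and 2, the slide block 0 and 0, and fitting all 3 groups 7 lower. The deposited table without scaling gave a median of -0.072, and the ventricle samples alone, an alternative chosen after seeing the data, gave -0.085. Leaving out 1 sample gave 2 to 9 higher and 1 to 10 lower, where 17.9 to 40.0% of all genes were called. The share of all genes called also moved with the setting, from 29.6% in the main fit. It was 44.4% with every array as its own sample and 11.8% with no filter. With the region block it was 24.2% and with the slide block 5.65%. For KO minus C2C12 (0 and 0, median -0.088), every array as its own sample gave 2 and 2 and median scaling a median of -0.037, and leaving out 1 sample 0 to 1 lower. For WT minus C2C12 (1 and 7, median -0.072), every array gave 12 and 14, median scaling 0 higher with a median of -0.12, and no filter 0. Quantile normalization, a filter on every array, every probe, the dimmest probe and names through the accession each gave 2 higher, and normexp 4. The deposited table gave 3 with a median of -0.0052, the slide block 0 and 2, and fitting only the 2 groups 0. Leaving out 1 sample gave 0 to 5 higher, 3 to 14 lower and a median of -0.083 to -0.027. Normexp brought the Cox7a1 and Cox7a2 pair to 0.38 (exact permutation p = 0.3). Median scaling moved the KO minus WT median of all genes from -0.064 to 0.037, so directions of members near 0 depend on it. Other results of the comparisons, 165 of 221, stayed on their side of the threshold or within the spread between samples. The causes of these shifts were not tested, apart from the every-probe setting, which counts a gene several times. No paired analysis was possible by replicate number because the labels carry none, and the region block above pairs the samples of 1 region. The pair of Ndufa4l2 and Ndufa4 was not run, since no probe carries the first name. The 3 samples per genotype limit the calls, as does the background for Cox8b, Cox4i2 and Cox8c.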

Other observations

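Through accessions rather than the names printed on the array, 14 further genes of the same prefixes came in. Uqcr10, a small subunit of complex III, was at 0.06 in KO minus WT (limma adjusted p = 0.74), Ndufv3 at -0.43 (0.14) and the complex II assembly factor Sdhaf2 at -0.52 (0.031). Cox7b2, a complex IV isoform known from testis, read 0.35 in KO aorta, -2.86 in KO atrium and -5.09 in KO ventricle, and -6.84, -7.79 and -6.67 in WT atrium, ventricle and aorta. It was above background on 4 of 5 KO arrays and on no WT array, which puts the KO log2 mean at least 5.41-fold above WT (adjusted p = 0.045). This bound does not hold for each sample, since KO ventricle lay below the mean WT limit of -4.97. Its highest KO region was aorta, where Cox8b and Cox6a2 were highest in ventricle. The array also held 3 probes for genes of the mitochondrial genome, and none was called. COX2 read 6.29, 6.18 and 6.26 in KO atrium, ventricle and aorta and 6.15, 6.43 and 6.27 in WT (KO minus WT -0.04, adjusted p = 0.85), CYTB differed by -0.10 (0.89) and ND4L by -0.35 (0.22).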
